A study of Mus musculus with 6 samples.

Results

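The genes described here are 40 genes of the cell cycle and DNA replication, named by symbol and found in a deposited table of 45777 mouse genes. All 40 were in the table, and all 40 passed the filter on low counts, which left 17820 genes. The tissue was eWAT, the fat pad beside the epididymis, and its RNA was measured by mRNA sequencing in 6 libraries from C57BL/6 mice fasted for 24 h. The 3 libraries labelled WT came from mice with the genotype Pak4 flox/flox, in which loxP sites flank part of the gene for PAK4, a serine/threonine kinase. The 3 libraries labelled KO came from Adipoq-Cre; Pak4 flox/flox mice, so all 6 libraries carry the floxed alleles. Adipoq-Cre is active in adipocytes. The cell type is labelled adipocytes, but excised tissue was used, which also holds vessels, progenitors and immune cells. Whether the numbered libraries of a label are separate mice is not stated, so every p-value measures the spread between these libraries, which may be technical.

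Cells copy their DNA in S phase and divide it in mitosis, and each step has its own set of proteins. In G1, D-type cyclins activate CDK4 and CDK6, which phosphorylate RB and release E2F transcription factors; cyclin E with CDK2 then starts S phase. Inhibitors of the CIP/KIP family (p21, p27, p57) and the INK4 family (such as p18) hold these kinases back. Mature adipocytes do not normally divide; D-type cyclins and the inhibitors are also made by cells at rest. In whole tissue, fewer cells of a type and less RNA per cell cannot be told apart.

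The members were grouped by role into 14 genes of S phase (cyclin E, origin licensing, the MCM helicase, the clamp PCNA and the enzymes of nucleotide supply), 16 mitotic genes, cyclin A2, which acts in both phases, 5 cyclins and kinases of G1, and 4 CDK inhibitors. Their promoters were compared for the words that mark the usual control of these phases. E2F factors bind TTTCCCGC, TTTGGCGC, TTTCGCGC or TTTGCCGC, NF-Y binds CCAAT, and the cell cycle genes homology region, CHR, is TTTGAA. Each word was searched on both strands of 300 bases around a RefSeq start (250 before, 50 after; GRCm38.p6), with overlapping matches allowed. RefSeq windows were found for 32 of 40 members, the others being Aurkb, Ccna2, Ccnd1, Ccnd2, Ccne2, Cdkn1c, Mcm4 and Tpx2. An E2F word was found in 6 of 12 S phase genes (Cdc6, Cdt1, Mcm3, Mcm5, Mcm6 and Mcm7) and in 1 of 14 mitotic genes (Cdk1), or 46.2% and 7.14% of their windows, against 2.26% of all 32851 windows. The CHR word was found in 10 of 14 mitotic genes and in 1 of 12 S phase genes (Mcm2), or 71.4% and 7.69% of their windows, against 17.9% of all windows. CCAAT was found in 13 of 14 mitotic and 8 of 12 S phase genes, or 92.9% and 69.2% of their windows, against 37.4% of all windows. The words were chosen after the members' values were known. The 180 bases before the start of 5 genes are given as examples, with 2 MCM genes first and 3 mitotic genes after them. These examples do not stand for their lists, since only 6 of 12 S phase genes had an E2F word. Cdk1 was the only mitotic gene with an E2F word. Capitals mark every E2F, CCAAT and CHR match on either strand (ATTGG is CCAAT and TTCAAA is TTTGAA read on the other strand).
Mcm5, chr8:75109329-75109508, plus strand: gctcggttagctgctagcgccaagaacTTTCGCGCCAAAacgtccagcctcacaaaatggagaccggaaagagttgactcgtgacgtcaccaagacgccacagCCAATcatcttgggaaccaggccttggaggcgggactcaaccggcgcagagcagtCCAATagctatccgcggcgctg
Mcm6, chr1:128359706-128359885, minus strand: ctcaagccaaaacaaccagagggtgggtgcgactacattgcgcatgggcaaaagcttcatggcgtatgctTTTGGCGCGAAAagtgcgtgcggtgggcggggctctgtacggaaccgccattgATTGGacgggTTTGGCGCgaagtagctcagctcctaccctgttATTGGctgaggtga
Cdk1, chr10:69352913-69353092, minus strand: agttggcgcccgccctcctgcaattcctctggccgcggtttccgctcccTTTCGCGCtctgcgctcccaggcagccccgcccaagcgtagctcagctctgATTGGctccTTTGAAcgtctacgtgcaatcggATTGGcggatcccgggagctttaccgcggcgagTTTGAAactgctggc
Cdc20, chr4:118437344-118437523, minus strand: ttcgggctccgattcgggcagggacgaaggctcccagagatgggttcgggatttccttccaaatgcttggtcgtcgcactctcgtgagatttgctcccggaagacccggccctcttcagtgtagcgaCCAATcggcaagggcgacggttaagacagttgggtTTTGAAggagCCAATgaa
Kif11, chr19:37376202-37376381, plus strand: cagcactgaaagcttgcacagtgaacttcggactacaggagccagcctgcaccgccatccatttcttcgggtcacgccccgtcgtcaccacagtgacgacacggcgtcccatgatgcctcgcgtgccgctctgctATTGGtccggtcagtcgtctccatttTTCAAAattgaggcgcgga
Mcm6 had 3 E2F matches and Mcm5 had 2, with no CHR match in either window. Cdk1 had 1 E2F and 2 CHR matches, while Cdc20 and Kif11 had 1 CHR match each, 18 and 19 bases before the start, and no E2F match. A match of letters is a description of sequence and does not show that a factor was bound.

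Total counts were 62854465 to 72005658 per library, and the 40 members took 0.0710% to 0.0836% of them. Pak4 itself had 339, 337 and 358 counts under the WT label and 815, 744 and 675 under the KO label (log2 fold change 0.96 ± 0.14, SE; adjusted p 0.0898 by edgeR). Counts of the targeted gene thus lay higher under the label that names its loss. They cover the whole gene, so they cannot show whether the part between the loxP sites was lost, which was not tested. Whether the labels are right was not tested either, and every direction below is between libraries by their labels. The library labelled KO 1 stood apart from the others of its label: on the first principal component it lay at -1.85, between the libraries labelled WT (-53.5 to -12.3) and KO 2 and KO 3 (40.9 and 53.5). The tissue carried its label's markers, as 10 genes of mature adipocytes summed to 42634 to 50242 CPM per library, while 10 genes of epididymis and sperm summed to 1.66 to 4.52 CPM with Defb20 and Lcn5 at 0. Levels below are TMM-scaled CPM (counts per 1000000, scaled between libraries), group values are mean ± SD with 3 libraries each, and fold changes are log2 of the libraries labelled KO over those labelled WT, ± SE.

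None of the 40 members passed the threshold of 0.05 after Benjamini-Hochberg adjustment over all genes, where 0.0168% of all genes did (3 of 17820) by edgeR's quasi-likelihood test. The lowest adjusted p among the members was 0.125, for Cdk4. All 3 genes called lay lower under the KO label (0.0168%), and 0% of genes were called higher. At an unadjusted p under 0.05 there were 8 of 40 members, where 19.4% of all genes reached that level. Of these, 5 had more counts under the KO label (Mcm4, Mcm6, Mcm7, Cdk4 and Cdkn2c; 9.66% of all genes) and 3 had fewer (Ccne1, Ccne2 and Cdkn1c; 9.71% of all genes). In 6 of 40 members the groups did not overlap, 4 with KO above and 2 with KO below, where 26.2% of all genes did not (13.7% above, 12.5% below). Both counts are near or under the background and single out nothing about the members.

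By DESeq2, 4 members passed, where it called 7.16% of the genes it tested. Mcm4, Cdk4 and Cdkn2c were higher (2.89% of genes) and Ccne1 lower (4.27%). Without KO 1, edgeR called 3 members where it called 5.57% of genes: Cdk4 and Cdkn2c higher (2.08%) and Cdkn1c lower (3.49%). Without WT 1 and KO 1 it called the same 3 members, Cdk4 and Cdkn2c higher (3.12%) and Cdkn1c lower (5.29%), where it called 8.42% of genes. No member passed under the other settings, in which few genes did: limma voom called 0.0281%, scaling by library size alone 0.0224%, RLE scaling 0.0168%, no filter 0.0151% and the replicate block 0.00561%. Without WT 1, 2 or 3 the shares were 0.0272%, 0.00548% and 0.00547%, and without KO 2 or KO 3 they were 0.0109% and 0.00554%.

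**Figure D1:**
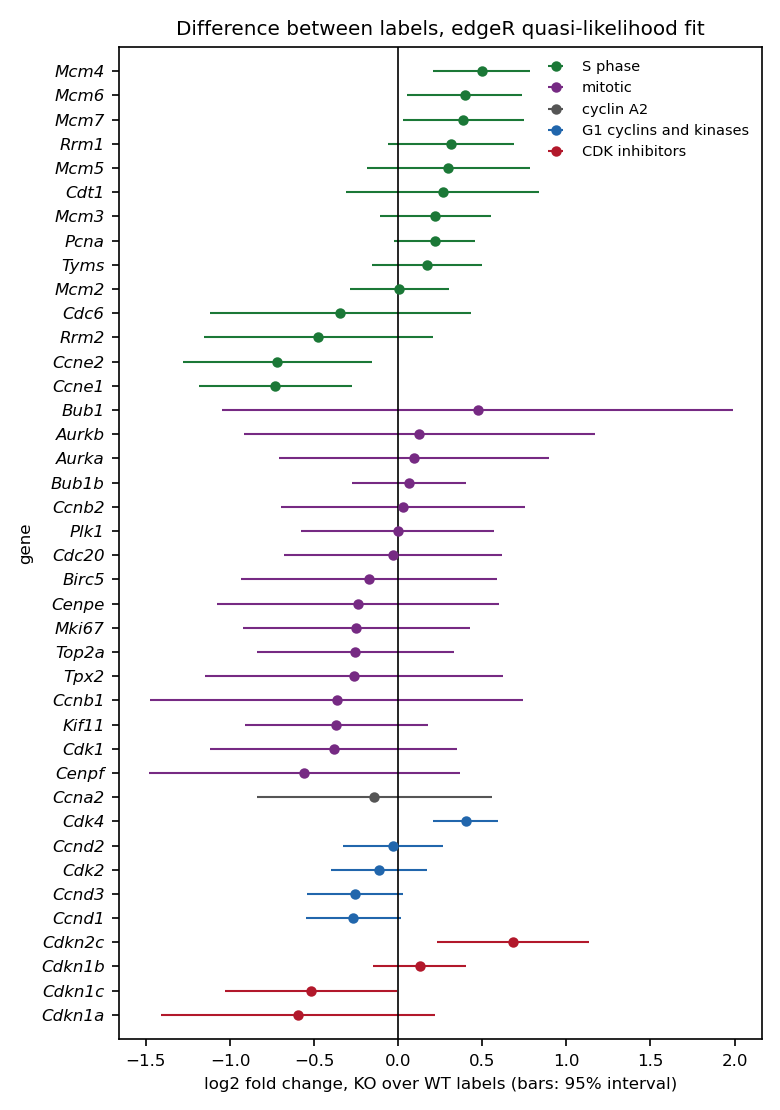
Log2 fold change (x axis) of the 40 members (y axis) between the libraries labelled KO and WT in edgeR's quasi-likelihood fit, coloured by role. Points are estimates and bars 95% intervals. Mcm2 lies at about 0 and the other MCM genes above it, cyclin E genes are lowest among S phase genes, and the intervals of all 16 mitotic genes cross 0.

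The S phase and mitotic genes had medians on opposite sides of 0. The median log2 fold change was 0.22 over the 14 S phase genes and -0.21 over the 16 mitotic genes, a gap of 0.42, beside 0.02 over all genes tested. Of the S phase genes 10 of 14 lay above 0, and of the mitotic genes 5 of 16, where 52.1% of all genes did; with scaling by library size alone these were 10 and 7. S phase fold changes ran from -0.73 (Ccne1) to 0.50 (Mcm4), and mitotic ones from -0.56 (Cenpf) to 0.47 (Bub1). The gap was not tested. MCM genes made up 6 of the 10 S phase genes above 0. Relative to the mean of the libraries labelled WT, the mean log2 CPM over all 14 S phase genes was 0.04 ± 0.11 under the KO label. That lay within the spread of 0.16 (SD) under the WT label. The mean log2 CPM over the S phase genes, minus that over the mitotic genes, was 0.27, -0.30 and 0.03 in WT 1, 2 and 3 and 0.68, -0.12 and 0.06 in KO 1, 2 and 3, set to 0 at the mean of the libraries labelled WT. KO 1 was the highest and WT 1 next, so the groups overlapped, and KO averaged 0.21 ± 0.42 beside a spread of 0.29 (SD) under the WT label. Without KO 1 the mitotic median was 0.01 and the gap 0.23.

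**Figure D2:**
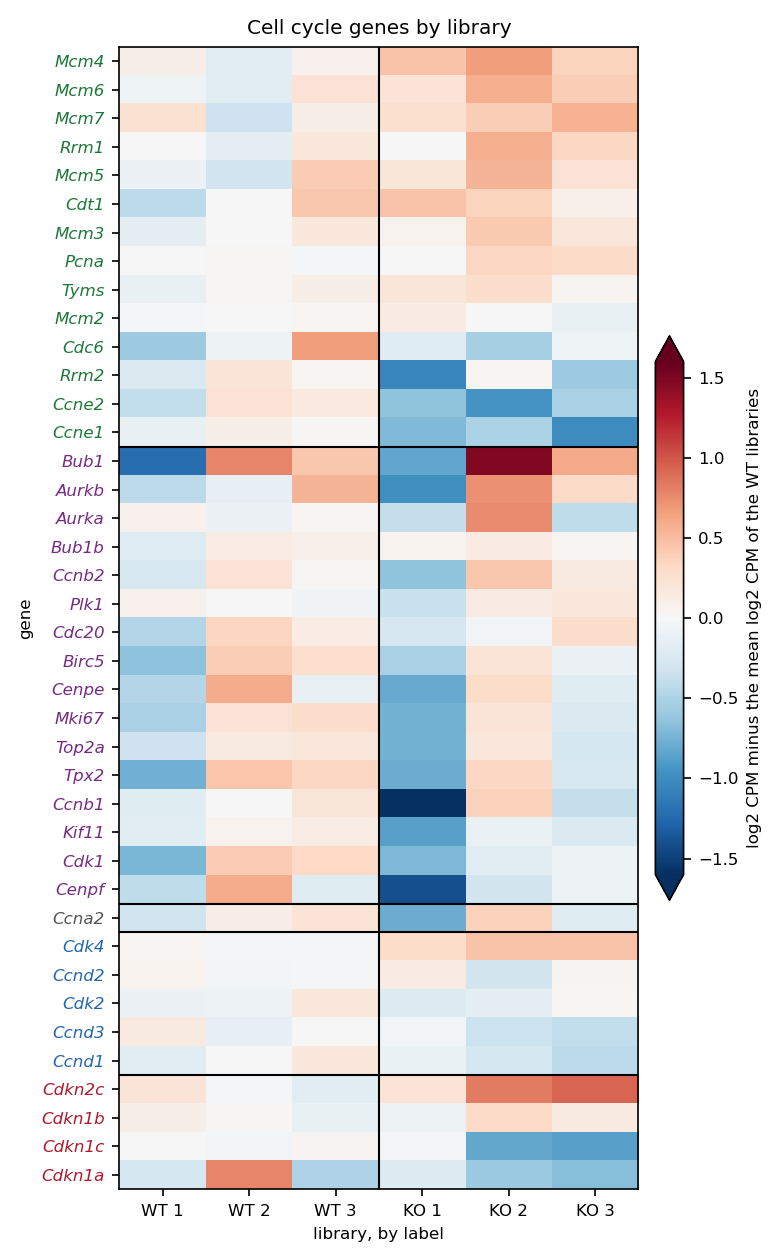
Log2 CPM of each member (rows, ordered by role and fold change) in each library (columns), as the difference from the gene's mean over the libraries labelled WT. Red is higher and blue lower. Most mitotic genes are blue in WT 1 and KO 1, the lowest libraries of their label in 14 of 16 genes each.

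The MCM genes, which encode the 6 subunits of the ring that unwinds DNA at replication forks, had log2 fold changes from 0.01 to 0.50 in this fit, with Mcm2, the lowest, just under 0 with DESeq2 or RLE scaling. Mcm4 had 12.5, 10.5 and 12.4 CPM under the WT label and 16.1, 18.7 and 15.05 CPM under the KO label. All 3 libraries labelled KO lay above all 3 labelled WT, with a log2 fold change of 0.50 ± 0.12 and an adjusted p of 0.147 in edgeR. Mcm7 had 32.7, 21.9 and 29.6 CPM against 33.0, 36.4 and 40.6 CPM. The groups did not overlap, but KO 1 and WT 1 were nearly level (0.39 ± 0.16, adjusted p 0.235 in edgeR). Mcm7 shares 91 bases with Ap4m1, which averaged 1779 counts against 2177 for Mcm7, so its count is uncertain. Mcm6 had 9.83, 9.13 and 12.1 CPM against 11.95, 15.4 and 13.5 CPM, so WT 3 reached above KO 1 (0.40 ± 0.15, adjusted p 0.213 in edgeR).

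The other MCM subunits had overlapping groups. Mcm3 had 7.64, 8.49 and 9.63 CPM under the WT label and 8.87, 11.5 and 9.70 CPM under the KO label (0.22 ± 0.14). Mcm5 stood at 4.77 ± 1.25 and 5.87 ± 0.83 CPM (0.30 ± 0.21), and Mcm2 at 5.45 ± 0.11 and 5.48 ± 0.46 CPM (0.01 ± 0.13, 95% interval -0.29 to 0.30). Over the 6 MCM genes the mean log2 CPM was 0.00, -0.16 and 0.17 in WT 1, 2 and 3 and 0.22, 0.44 and 0.27 in KO 1, 2 and 3, relative to the mean of the libraries labelled WT. The means of the labels did not overlap, although WT 3 and KO 1 were close; this subset was looked at after its values were known and has no test. The median over the MCM genes was 0.34.

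PCNA, the sliding clamp of DNA polymerases, was the most abundant S phase transcript per length, at a mean of 57.8 TPM in the authors' deposited values. Pcna had 36.0, 36.5 and 35.4 CPM under the WT label and 35.9, 45.1 and 44.4 CPM under the KO label. KO 2 and KO 3 were above every library labelled WT and KO 1 was within their range (0.22 ± 0.10, adjusted p 0.292 in edgeR). A Pcna pseudogene, Pcna-ps2, averaged 158 counts beside 2616 for Pcna, so a share of reads may be placed on either. Rrm1, the large subunit of ribonucleotide reductase, which makes deoxynucleotides, had 17.3, 15.6 and 19.5 CPM against 17.3, 26.1 and 21.9 CPM (0.32 ± 0.16). As with Pcna, KO 1 lay among the libraries labelled WT.

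The S phase genes below 0 included cyclin E, which drives entry into S phase. Ccne1 had 2.66, 3.07 and 2.93 CPM under the WT label and 1.77, 2.02 and 1.44 CPM under the KO label. Every library labelled KO was below every library labelled WT, with KO 1 as low as the others (-0.73 ± 0.20, adjusted p 0.155 in edgeR). Ccne2 had 1.68, 2.60 and 2.46 CPM against 1.41, 1.13 and 1.54 CPM, again without overlap (-0.72 ± 0.24, adjusted p 0.192 in edgeR). Ccne2 shares 5622 bases of its locus with Ints8, which averaged 1567 counts against 120 for Ccne2, so its count is uncertain. Rrm2, the small subunit of ribonucleotide reductase, which is broken down after mitosis, had 1.94, 2.61 and 2.32 CPM against 1.10, 2.32 and 1.52 CPM (-0.47 ± 0.29). Its groups overlapped, and its fold change was on the other side of 0 from that of its partner Rrm1.

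The remaining S phase genes overlapped between labels. Cdc6, which loads MCM onto origins, stood at 1.72 ± 0.76 and 1.35 ± 0.22 CPM (-0.34 ± 0.33). Its partner in loading, Cdt1, stood at 2.301 ± 0.68 and 2.76 ± 0.36 CPM (0.26 ± 0.25). Tyms, the thymidylate synthase, stood at 4.34 ± 0.33 and 4.89 ± 0.40 CPM (0.17 ± 0.14).

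Markers of 4 other cell types also lay mostly above 0. Those of mesothelium did in 8 of 9 cases (median 0.51), with sums of 556 to 914 CPM under the WT label and 904 to 1098 CPM under the KO label. Those of B and plasma cells did in 9 of 10 (median 0.42), with sums of 210 to 284 CPM and 273 to 300 CPM. The mean log2 CPM of the B and plasma cell markers, like that of the MCM genes, separated the labels. It was 0.53, -0.49 and -0.05 in WT 1, 2 and 3 and 0.61, 0.67 and 0.64 in KO 1, 2 and 3, so WT 1 and KO 1 were close. This likeness was seen after the values were known, and the means of macrophage, mesothelium and neutrophil markers overlapped. Neutrophil markers lay above 0 in 5 of 6 tested (median 0.40), with sums of 19.2 to 20.9 CPM and 25.8 to 34.9 CPM and Ly6g at 0. Macrophage markers did in 15 of 15 (median 0.31), with sums of 1915 to 2333 CPM and 2042 to 2807 CPM. Apart from Ly6g none of these markers was at 0 in all libraries, and the part of these cells in the MCM values was not tested. Endothelial markers lay the other way, with 8 of 10 below 0 and sums of 287 to 368 CPM and 243 to 262 CPM, none at 0 in all libraries. Their mean log2 CPM also separated the labels, at -0.18, 0.16 and 0.03 in WT 1, 2 and 3 and -0.32, -0.50 and -0.40 in KO 1, 2 and 3. Their part in the cyclin E values was not tested. Markers of progenitors and fibroblasts were nearer even, with 6 of 10 above 0 (median 0.07) and sums of 4151 to 4466 CPM and 4006 to 5666 CPM. Those of mature adipocytes lay above 0 in 3 of 10 (median -0.22) and erythroid ones in 3 of 8 (median -0.14).

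**Figure D3:**
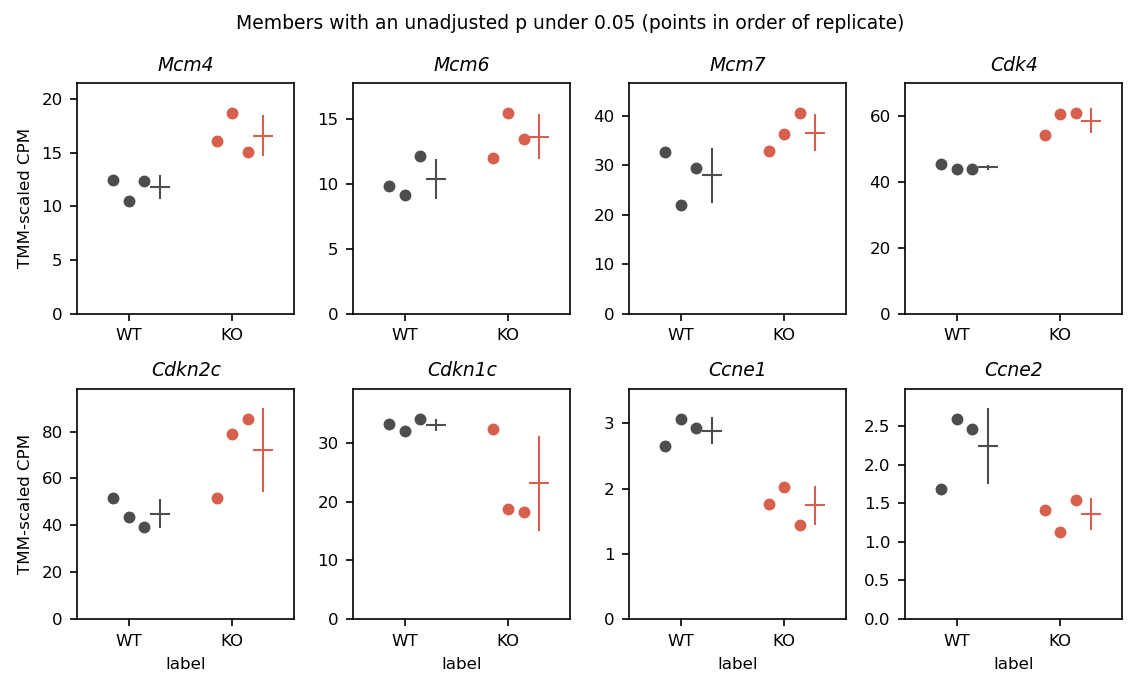
TMM-scaled CPM (y axis, from 0) of the 8 members with an unadjusted p under 0.05 in the 3 libraries of each label (points, replicates 1, 2 and 3 from left to right), with mean and SD beside them. KO 1 lies beside the libraries labelled WT for Mcm7, Cdkn2c and Cdkn1c, and with the other libraries labelled KO for Mcm4, Cdk4, Ccne1 and Ccne2.

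Mitotic transcripts were rare in every library. All 16 averaged under 3 TPM, from 0.283 TPM (Cenpf) to 2.54 TPM (Birc5), and their sum was 32.7 to 51.6 CPM under the WT label and 27.3 to 49.8 CPM under the KO label. The lowest count was 14, for Bub1 in WT 1. The median SE was 0.32 over the mitotic and 0.16 over the S phase genes. None of the 16 had groups that did not overlap, and the lowest unadjusted p was 0.158 (Kif11), so no difference between labels passed beside the spread of these libraries. The count of 5 above 0 is loosely held, since 10 of the 16 changed sign when a library was left out or the setting was changed.

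Most mitotic genes were lowest in WT 1 under the WT label and in KO 1 under the KO label. Mki67, which encodes the proliferation marker Ki-67, stood at 8.66 ± 2.4 and 7.28 ± 2.36 CPM (-0.25 ± 0.29). Top2a, the topoisomerase that untangles replicated chromosomes, had 5.34, 7.46 and 7.66 CPM against 3.998, 7.62 and 5.53 CPM (-0.25 ± 0.25). Cdk1, the kinase that drives mitosis, had 2.60, 5.73 and 5.40 CPM against 2.63, 3.82 and 4.07 CPM (-0.38 ± 0.32). For Cdk1, too, WT 1 and KO 1 were the low libraries, at nearly the same level. Without KO 1 the log2 fold changes of Mki67, Top2a and Cdk1 were -0.04, -0.05 and -0.22, and without KO 2 they were -0.51, -0.52 and -0.45. Of the 16 mitotic genes, 14 had WT 1 as the lowest library labelled WT and 14 had KO 1 as the lowest labelled KO.

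Cenpf and Kif11 showed the same low libraries. Cenpf, a protein of the kinetochore, had 1.47, 2.92 and 1.70 CPM under the WT label and 0.73, 1.58 and 1.83 CPM under the KO label (-0.56 ± 0.40). Kif11, the motor that pushes spindle poles apart, had 2.51, 2.92 and 3.06 CPM against 1.55, 2.63 and 2.42 CPM (-0.37 ± 0.23, 95% interval -0.91 to 0.18). Cenpf stood at -0.19 without WT 2 and -0.26 without KO 1, and Kif11 at -0.17 without KO 1. KO 1 was the lowest of all 6 in both, and WT 1 the lowest under its label. Ccna2, cyclin A2, had 2.61, 3.51 and 3.78 CPM against 1.89, 4.22 and 2.86 CPM and so shared the low WT 1 and KO 1 (-0.14 ± 0.30). It shares 863 bases with Exosc9, which had more counts, so its value is uncertain.

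The other mitotic genes can be given by function. Among the cyclins and the activator of their destruction, Ccnb1 stood at -0.37 ± 0.48, Ccnb2 at 0.03 ± 0.31 and Cdc20 at -0.03 ± 0.28. Among the spindle checkpoint kinases, Bub1 stood at 0.47 ± 0.65 and its relative Bub1b at 0.07 ± 0.15, the smallest SE of the mitotic genes. Among the mitotic kinases and their partners, Aurka stood at 0.10 ± 0.35, Aurkb at 0.13 ± 0.45, Plk1 at 0.00 ± 0.25, Tpx2, which activates Aurora A, at -0.26 ± 0.38 and Birc5, survivin, at -0.17 ± 0.33. The kinetochore motor Cenpe stood at -0.24 ± 0.36. Aurka and Cdc20 share bases with genes of far higher count, Cstf1 and Elovl1, so their values are uncertain.

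Markers of T and NK cells took the same order over the 6 libraries as the mitotic genes, with KO 2 highest, then WT 2, WT 3, KO 3, WT 1 and KO 1. Relative to the mean of the libraries labelled WT, the mean log2 CPM of the mitotic genes was -0.41, 0.25 and 0.15 in WT 1, 2 and 3 and -0.72, 0.28 and -0.05 in KO 1, 2 and 3. That of the 12 T and NK markers was -0.39, 0.24 and 0.15, then -0.53, 0.38 and -0.03. Their summed level was 13.0 to 17.0 CPM under the WT label and 10.8 to 19.9 CPM under the KO label, none was at 0 in all libraries, and 5 of 12 lay above 0. This list was singled out among 10 marker lists after its values were seen, and its part in the mitotic values was not tested. For the S phase genes the means were -0.13, -0.05 and 0.18, then -0.05, 0.16 and 0.01, a narrower range and another order.

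**Figure D4:**
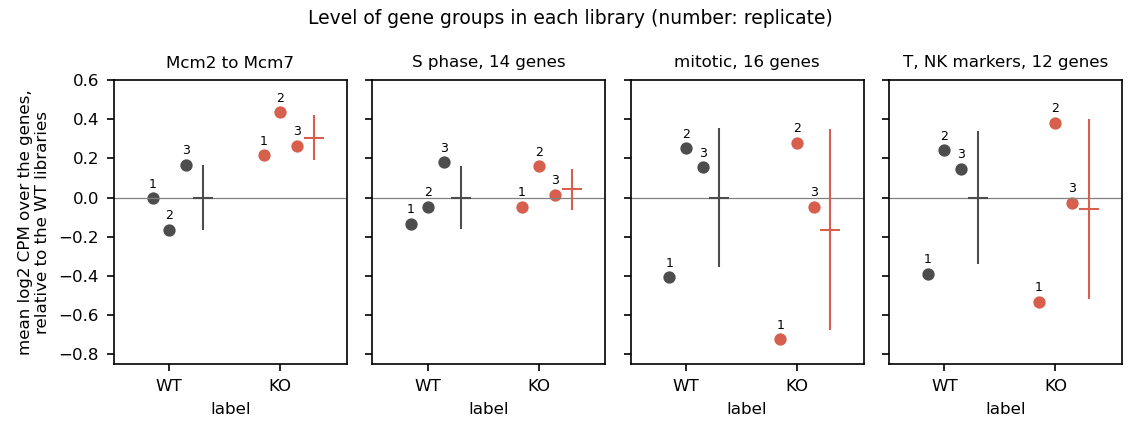
Mean log2 CPM over the genes of a group in each library, relative to the libraries labelled WT (y axis), for the MCM genes, all S phase genes, mitotic genes and T and NK cell markers. Points carry their replicate number, and bars give mean and SD. Replicate 1 is the lowest of each label for the mitotic genes and for the T and NK markers, and the mean of the MCM genes, a subset looked at after its values were known, lies at 0.17 in WT 3 and 0.22 in KO 1, the nearest libraries of the labels.

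Of the cyclins and kinases of G1, Cdk4 had the smallest p of all members. Cdk4 had 45.4, 43.8 and 44.0 CPM under the WT label and 54.2, 60.8 and 60.9 CPM under the KO label. The groups were apart by more than the spread in either, at 44.4 ± 0.88 and 58.6 ± 3.83 CPM (0.40 ± 0.08, edgeR's quasi-likelihood p 0.00141 before adjustment and 0.125 after). It passed with DESeq2 (adjusted p 0.00484) and in edgeR without KO 1 (0.45, adjusted p 0.0330), and its adjusted p was 0.00484 to 0.417 over all alternatives.

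The D-type cyclins that partner CDK4 did not share its direction. Ccnd1 had 22.2, 25.0 and 28.0 CPM under the WT label and 23.2, 20.5 and 18.7 CPM under the KO label (-0.27 ± 0.12). Ccnd3, at 105 TPM the most abundant member per length, had 133, 110 and 120 CPM against 117, 95.03 and 92.3 CPM (-0.26 ± 0.12). In both, KO 1 lay within the range of the libraries labelled WT and KO 2 and KO 3 lay below it. Ccnd1 shares 818 bases of its locus with LTO1, which averaged 1256 counts against 1522 for Ccnd1. Cdk2 shares 7114 with Pmel (82.2 against 772 counts) and Ccnd3 359 with Bysl (746.5 against 7378.5 counts). The counts of these 3 members are therefore uncertain. Ccnd2 had 246, 230 and 234 CPM against 258, 193 and 244 CPM, with KO 1 the highest and KO 2 the lowest (-0.03 ± 0.13). Cdk2, the partner of cyclin E, had 11.2, 11.3 and 13.5 CPM against 10.3, 10.9 and 12.2 CPM (-0.11 ± 0.12). With scaling by library size alone, which moved the median of all genes from 0.02 to 0.13, Cdk2 stood at 0.01 and Ccnd2 at 0.09, both under the median of all genes.

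The CDK inhibitors went both ways, and Cdkn2c had the highest fold change of all members. Cdkn2c, which encodes p18, the INK4 inhibitor of CDK4 and CDK6, had 51.7, 43.7 and 39.4 CPM under the WT label and 51.8, 78.8 and 85.5 CPM under the KO label. The groups did not overlap, but KO 1 was level with WT 1 and the difference lay in KO 2 and KO 3 (0.68 ± 0.19, adjusted p 0.167 in edgeR). Without KO 1 it passed in edgeR at 0.87 (adjusted p 0.0264), and without WT 1 and KO 1, an exclusion chosen after seeing the values, at 0.98 (adjusted p 0.0120).

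Cdkn1c, which encodes p57 and is imprinted, had 33.2, 32.1 and 34.2 CPM under the WT label and 32.5, 18.8 and 18.2 CPM under the KO label. KO 1 sat inside the narrow range of the libraries labelled WT, and the other libraries labelled KO were well below it (-0.52 ± 0.22, adjusted p 0.255 in edgeR). Without KO 1 the log2 fold change was -0.84, with an adjusted p of 0.0232 in edgeR, where 5.57% of all genes passed. Without KO 2 or KO 3 no CDK inhibitor passed, and their lowest adjusted p was 0.427 and 0.432 in edgeR. Cdkn1a, which encodes p21, a target of p53, had 26.4, 55.3 and 22.8 CPM against 27.7, 21.4 and 20.1 CPM, so its mean difference rested on WT 2 (-0.60 ± 0.34). Cdkn1b, p27, had 30.7, 29.2 and 26.3 CPM against 27.0, 35.5 and 31.7 CPM (0.13 ± 0.12).

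Other genes of the pathway were read from lists of genes that are not among the 40. Of 40 further replication genes 30 lay above 0 (median 0.17), and 0 passed over all genes by edgeR. An unadjusted p under 0.05 was reached by 1 gene above 0 and 4 below, and in 10 of 40 the groups did not overlap, both under the background of 19.4% and 26.2% of all genes. Pold1, the catalytic subunit of DNA polymerase delta, had 5.13 ± 0.50 and 7.21 ± 0.78 CPM (0.49 ± 0.14). Gins2, part of the helicase with MCM, went the other way, at 8.77 ± 0.91 and 6.50 ± 0.71 CPM (-0.43 ± 0.14), as did Rfc4, a clamp loader subunit (-0.43 ± 0.14), and Gins4 (-0.19 ± 0.08). These 4 were named for having the smallest p of the list.

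Of 40 further mitotic genes 20 lay above 0 (median -0.01), and 0 passed by edgeR. An unadjusted p under 0.05 was reached by 2 above 0 and 0 below, under the background of 19.4% of all genes. These were Cdc25b, a phosphatase that activates CDK1 (6.24 ± 0.44 and 8.34 ± 0.23 CPM, 0.42 ± 0.11), and Anln, anillin of the cleavage furrow (0.42 ± 0.14). Mybl2 (-0.58 ± 0.29) and Kif4 (-0.65 ± 0.36), at means under 1 CPM, did not reach that level. The further mitotic genes had the library order of the mitotic members, at -0.29, 0.19 and 0.10 in WT 1, 2 and 3 and -0.60, 0.27 and 0.06 in KO 1, 2 and 3.

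Among 18 genes of RB, E2F and the DREAM complex, which represses cell cycle genes at rest, 12 lay above 0 and 0 passed by edgeR, with 2 higher and 2 lower at an unadjusted p under 0.05, near the background of 19.4%. E2f1, an activator of S phase genes, had 11.5, 15.4 and 11.9 CPM under the WT label and 9.47, 8.38 and 5.96 CPM under the KO label. All libraries labelled KO were below those labelled WT, the same side as Ccne1 and the opposite side to Mcm4 (-0.71 ± 0.20, adjusted p 0.160 in edgeR). Rb1 had 88.7, 92.9 and 87.4 CPM against 74.8, 69.4 and 65.5 CPM, also without overlap (-0.36 ± 0.09, adjusted p 0.145 in edgeR). E2f5 stood at 0.37 ± 0.13 and Lin54, a DNA-binding subunit of DREAM, at 0.33 ± 0.12. E2f1 and Rb1 passed with DESeq2 (adjusted p 0.0262 and 0.0118), which called 7.16% of the genes it tested. Of the 18 genes, 4 had all libraries labelled KO above and 3 had them below, where 13.7% and 12.5% of all genes did.

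Among 15 other CDK genes and regulators 7 lay above 0 and 0 passed. Mnat1, a subunit of the CDK-activating kinase, stood at -0.34 ± 0.13, Ccng2 at -0.26 ± 0.13, Cdkn2a at -0.67 ± 0.37 and Cdc25a at 0.22 ± 0.14. Among 14 p53 targets, of which Cdkn1a is a further one, 5 lay above 0 and 0 passed. Sesn2, a stress-induced sestrin, had 87.7, 107 and 89.6 CPM against 74.9, 52.9 and 27.2 CPM (-0.88 ± 0.34), while its relative Sesn1 stood at 0.40 ± 0.16. Aen stood at -0.40 ± 0.17 and Eda2r at 0.43 ± 0.22. For Sesn2 the libraries labelled KO lay below those labelled WT but spread over a wide range.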

How the data were processed

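Counts, FPKM and TPM for 6 libraries came from 1 table, with units per the file headers. Every test used the counts as deposited by the authors, unscaled. The deposited TPM values, scaled by the authors per length to a total of 1000000, were used to compare levels between genes; the deposited FPKM values were not used. The submitters' processing notes name HISAT2 2.1.0, Bowtie2 2.3.4.1, StringTie 2.1.3b and mm10, without roles. The kit was stranded, per the labels' protocols; whether counting used strand, and how it placed reads of copies, is not stated there, so overlapping genes and copies are uncertain. No pair of libraries agreed within sampling noise.

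The low-count filter was filterByExpr at a minimum of 10 and a total of 15. edgeR 4.0.16 in R 4.3.3, with TMM scaling, fitted a robust quasi-likelihood model on the label; tests were two-sided with Benjamini-Hochberg adjustment over all genes and a threshold of 0.05. Means of log2 CPM over a list used a prior count of 2, with each gene set to 0 at its mean in the libraries labelled WT. Alternatives were DESeq2 1.42.0, limma 3.58.1 (voom), RLE scaling, library size alone, no filter, a replicate block and leaving out each library. The members and lists were chosen with earlier results of these data known. Values in every library are given for members with an unadjusted p under 0.05 or groups that do not overlap, and for up to 4 further members per role with the smallest p. In each list of other pathway genes the 4 with the smallest p are named. Promoter sequences are from RefSeq on GRCm38.p6, the assembly of mm10; matches of 28 of 36 windows to the start of a GENCODE transcript on the same strand, and of 0 on the other, checked their orientation.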

Additional observations from a re-analysis of the deposited data

How the results depend on the processing

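DESeq2 called 1152 genes and 4 members, and limma voom 5 genes and 0 members, where edgeR called 3 and 0. With 1 library left out, edgeR called 1 (without WT 2, WT 3 or KO 3) to 1016 genes (without KO 1) and 0 to 3 members, and 5 to 12 members, against 8, had an unadjusted p under 0.05. Without WT 1 and KO 1 together, chosen after seeing the data, there were 1525 genes and 3 members, with 13 at an unadjusted p under 0.05. With 1 library left out the S phase median was 0.13 to 0.26 and the gap to the mitotic median 0.19 to 0.56, while the mitotic median was -0.42 to 0.01, above 0 without WT 2 (0.0097) or KO 1 (0.0128). The inhibitor median was -0.26 to 0.025, above 0 without WT 2, and the G1 median -0.18 to -0.041; the latter was 0.0072 with library size alone.

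Of 520 values of the 40 members under an alternative, 475 kept their direction and side of the threshold, 10 passed it and 35 changed sign, in 10 of the 16 mitotic genes, 3 of the 14 S phase genes, 2 of the 5 of G1 and cyclin A2. With library size alone Cdk2 (0.0072), Ccnd2 (0.085), Cdc20 (0.094) and Plk1 (0.12) were above 0. Mcm2 was at -0.0033 with DESeq2 and -0.0028 with RLE scaling, and Aurka and Ccnb2 at -0.011 and -0.023 with limma voom and -0.0036 and -0.017 with the replicate block. Without WT 1 and KO 1 Cdt1 was at -0.0025, Mcm2 at -0.071, Bub1b at -0.021 and Plk1 at 0.18. With 1 library left out the ranges that crossed 0 were Mcm2 -0.056 to 0.065, Cdc6 -0.59 to 0.053, Ccnd2 -0.12 to 0.085, Ccna2 -0.48 to 0.099, Ccnb1 -0.94 to 0.030, Bub1 -0.17 to 0.88, Cenpe -0.53 to 0.12, Birc5 -0.44 to 0.025, Bub1b -0.030 to 0.13, Aurkb -0.26 to 0.47, Aurka -0.39 to 0.29, Cdc20 -0.23 to 0.15, Ccnb2 -0.21 to 0.27 and Plk1 -0.095 to 0.14. The cause was not tested.

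Over all genes tested, deviations from the group means correlated at -0.17, -0.02 and 0.05 for replicate numbers 1, 2 and 3. Only WT 3 was closest to its own number, and the highest correlation, 0.19, was between WT 2 and KO 1. With 3 libraries a label, these correlations cannot settle whether the numbers pair the libraries. In the mitotic genes, number 1 was the lowest library under the WT label in 14 of 16 and under the KO label in 14 of 16. With the number as a replicate block 1 gene and 0 members were called, and the S phase and mitotic medians were 0.21 and -0.19. The lowest member count was 14 (Bub1 in WT 1), and 3 libraries a label cannot give a two-sided exact permutation p under 0.1.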
